A study of Mus musculus with 4 samples.

Results

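Elastic fibres give skin, lung and vessel walls their recoil, and the 8 genes described here encode elastin and the proteins that surround it: Eln, Fbn1, Mfap5, Mfap4, Fbln5, Fbln2, Fbln1 and Emilin1. They were named as a set and found by matching the Ensembl IDs of the count table to gene symbols, which gave 1 ID for each of the 8 genes among 56748 gene IDs (Eln ENSMUSG00000029675.13, Fbn1 ENSMUSG00000027204.14, Mfap5 ENSMUSG00000030116.15, Mfap4 ENSMUSG00000042436.13, Fbln5 ENSMUSG00000021186.10, Fbln2 ENSMUSG00000064080.13, Fbln1 ENSMUSG00000006369.15 and Emilin1 ENSMUSG00000029163.10). The rule that names them uses no expression value, but the set was chosen with earlier results of these data known. All 8 were among the 14365 genes that averaged 1 CPM or more (CPM, read counts scaled to library size) over the libraries, the set in which ratios were read.

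The study sequenced total RNA from mouse prostate fibroblasts, cells grown out of collagenase-digested prostates in medium with serum. The prostates came from male mice 8 to 10 weeks old of the strain named C57BL/6 in the protocol and CB57BL/6 in the genotype field. The 4 libraries formed a design of radiation or none by BuOE or PBS, with 1 library for each condition: PBS alone, BuOE alone, radiation with PBS, and radiation with BuOE. Radiation was given to the pelvis in fractions of 7.5 Gy over 5 days to a total of 37.5 Gy, at 1.2 Gy per minute. PBS is phosphate-buffered saline, and BuOE is read here as the treatment that the series title calls BMX-001, a manganese porphyrin that mimics superoxide dismutase. The dose of BuOE, whether it reached the animals or the cultures, and the number of animals or cultures behind a library are not given in the sources used here.

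With 1 library per condition no difference could be set against a spread between replicates. Each ratio below compares 2 libraries, not 2 conditions, and its 95% interval is an exact binomial one that covers counting error only, as do the exact Poisson intervals of the levels. The reads assigned to genes numbered 29744664 (PBS), 28856043 (BuOE), 35915448 (irradiated PBS) and 24996835 (irradiated BuOE). Levels are CPM scaled by trimmed mean of M values (TMM), and ratios are log2 ratios of such CPM with a prior count of 2 added. The intervals use no prior count, so at low counts a ratio differs slightly from that of the printed levels.

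The fibroblast label could be set against marker genes. The 10 fibroblast markers, Col1a1, Col1a2, Dcn, Pdgfra and Lum among them, summed to between 4749 and 6702 CPM, with none at 0. The 10 epithelial markers, Krt5, Krt8 and Epcam among them, summed to between 3834 and 5972 CPM, so each library also held much RNA of epithelial genes. The epithelial sum was below the fibroblast sum with PBS (4509 against 5019 CPM) and after radiation with PBS (3834 against 6702 CPM). It was above the fibroblast sum with BuOE (5661 against 4819 CPM) and after radiation with BuOE (5972 against 4749 CPM). The PBS library stood apart in the adipocyte list, at 574 CPM against 178 to 224 CPM in the other libraries, and in the list for Schwann cells, the glia of peripheral nerve, at 117 CPM against 228 to 334 CPM. It was also lowest in the endothelial list, at 498 CPM against 742 to 915 CPM. The neuronal list came to 114 CPM with PBS, 522 CPM with BuOE, 204 CPM after radiation with PBS and 85.7 CPM after radiation with BuOE.

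In an elastic fibre, secreted tropoelastin is gathered into droplets, laid on a scaffold of fibrillin microfibrils and cross-linked by lysyl oxidases. Fibulins and emilins sit at the interface between elastin, microfibrils and the cell surface. Fibroblasts and smooth muscle cells are the usual makers of these proteins, and microfibrils also hold latent TGF-beta in the matrix.

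In length-corrected terms the set was dominated by Fbln2 and Fbn1, and elastin was a minor transcript everywhere. Levels of different genes can be compared as TPM, transcript abundance corrected for gene length and library size, which was 859, 286, 654 and 312 for Fbln2 in the order PBS, BuOE, irradiated PBS and irradiated BuOE. Fbln2 made up 56.7% of the summed TPM of the 8 genes in the PBS library and 34.3% in the BuOE library, and Fbn1 between 21.8% and 28.7% over the 4 libraries. Emilin1 took 8.44% in the PBS library and 23.9% in the BuOE library. Eln took 0.0600% in the PBS library and between 0.695% and 1.02% in the others. The summed TPM of the 8 genes was 1513 and 1435 in the PBS libraries without and with radiation, and 834 and 713 in the matching BuOE libraries.

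**Figure D1:**
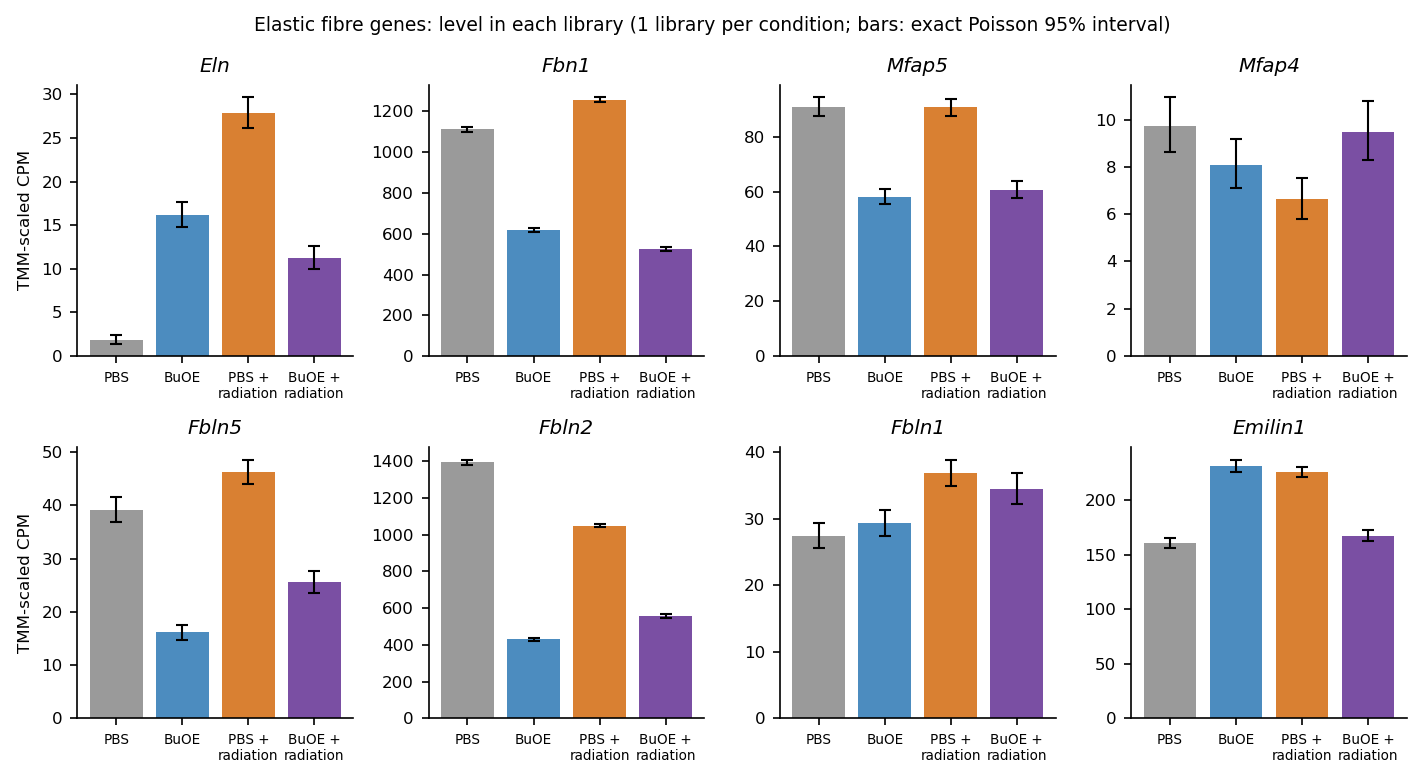
TMM-scaled CPM (linear axes from 0, 1 panel for each gene) of the 8 elastic fibre genes in the 4 libraries; each column is 1 library and its error bar is the exact Poisson 95% interval for counting error. Eln lies far lower in the PBS library (1.87 CPM) than in the other libraries (11.2 to 27.9 CPM), whereas Fbn1, Fbln2, Fbln5 and Mfap5 lie lower in both BuOE libraries than in both PBS libraries.

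Eln encodes tropoelastin, the soluble precursor of the elastic core. Its level was 1.87 CPM (1.41 to 2.44, from 55 reads) in the PBS library, 16.2 CPM (14.8 to 17.7, 492 reads) in the BuOE library, 27.9 CPM (26.2 to 29.7, 993 reads) after radiation with PBS and 11.2 CPM (9.94 to 12.7, 273 reads) after radiation with BuOE. The 4 counting intervals did not overlap, and the PBS library was the low one. In the PBS arm, that is PBS with radiation against PBS alone, the log2 ratio was 3.85 (3.50 to 4.31), higher than the ratio of 99.7% of genes. Eln was the 1 gene of the 8 that was at least 2-fold higher there, where 5.62% of all genes tested were, and none of the 8 was at least 2-fold lower, where 1.02% of genes were.

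With BuOE on both sides the Eln ratio of radiation against no radiation was -0.53 (-0.75 to -0.31). None of the 8 genes reached 2-fold in this BuOE arm, where 2.27% of genes lay that far up and 4.94% that far down. The difference between the arms, PBS minus BuOE, was 4.38 for Eln (3.93 to 4.82 by counting error). Eln was the only one of the 8 genes with a difference of at least 1 on the log2 scale in that direction, found for 8.76% of genes, and none passed it in the other direction, found for 2.70%. Whether the arms differed beyond the variation between cultures could not be tested with 1 library per condition.

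The comparisons of BuOE with PBS gave opposite directions for Eln. Without radiation the log2 ratio was 3.07 (2.71 to 3.54), 8.40-fold higher with BuOE, and after radiation it was -1.31 (-1.51 to -1.12), 2.47-fold lower with BuOE. On the summed counts of the 10 fibroblast markers, a scale added after the data were seen, the latter was -0.81, no longer past 2-fold. Within that sum Col1a1 and Col1a2 differed most, at 2249 and 1899 CPM after radiation with PBS and 795 and 840 CPM with BuOE. Of the 10 markers, 7 were lower with BuOE after radiation. Pdgfra (893 and 1048 CPM), Dcn (994 and 1324 CPM) and Gsn (358 and 505 CPM) were higher. The BuOE ratio without radiation and the radiation ratio of the PBS arm share the PBS library, so both carry its 55 reads.

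A ratio inside each library removes the scaling between libraries. Per 1000 reads of Fbn1, the most heavily counted microfibril gene, the PBS library held 1.68 reads of Eln (1.27 to 2.19), the BuOE library 26.2 (23.9 to 28.7), the irradiated PBS library 22.2 (20.8 to 23.6) and the irradiated BuOE library 21.3 (18.9 to 24.1). On this measure the libraries other than PBS lay close together and the PBS library alone was low. In particular, Eln relative to Fbn1 did not differ between the 2 irradiated libraries beyond counting error, since both genes were lower with BuOE there.

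Several marker lists went in the direction of Eln in the comparisons that use the PBS library. Their order of libraries differed from that of Eln. The Schwann and neuronal sums were highest in the BuOE library (334 and 522 CPM), whereas Eln was highest after radiation with PBS. The neuronal sum was lowest after radiation with BuOE (85.7 CPM). The endothelial sum was lowest with PBS (498 CPM) and highest after radiation with PBS (915 CPM), as Eln was. It differed from Eln in the order of the BuOE libraries, at 742 CPM without radiation and 771 CPM after it. All 9 Schwann cell markers were higher in the PBS arm after radiation (median log2 ratio 1.93) and higher with BuOE without radiation (median 2.62), as Eln was. Of the 9, 8 were lower in the BuOE arm after radiation (median -0.83) and 6 with BuOE after radiation (median -0.33). Sox10, a transcription factor of glial cells, was at 6.51, 50.6, 25.9 and 26.4 CPM in the order PBS, BuOE, irradiated PBS and irradiated BuOE. Of the 10 neuronal markers, 9 were higher in the PBS arm after radiation and 10 with BuOE without radiation, 10 were lower in the BuOE arm after radiation and 9 were lower with BuOE after radiation, the direction of Eln in each of the 4 comparisons. Th, Syt1 and Rbfox3 were at 0 in the PBS library. Of the 7 pericyte markers, from cells that wrap small vessels, 5 were higher in the PBS arm after radiation (median 1.21). With BuOE without radiation 5 were higher (median 1.70), and all 7 were lower in the BuOE arm after radiation (median -0.65). With BuOE after radiation 4 of the 7 were higher (median 0.01), where Eln was lower. All 10 endothelial markers were higher in the PBS arm after radiation and with BuOE without radiation (medians 1.25 and 0.80). In the BuOE arm 5 of these 10 were higher after radiation (median 0.01), and 8 were lower with BuOE after radiation (median -0.34). The 10 smooth muscle markers, from cells that also make elastin, were all higher in the PBS arm after radiation (median 0.62). With BuOE without radiation 6 of 10 were higher (median 0.66). Against the direction of Eln, 9 of 10 were higher in the BuOE arm after radiation (median 0.44) and 6 with BuOE after radiation (median 0.14). The 7 adipocyte markers past 1 CPM were all lower in the PBS arm after radiation and with BuOE without radiation (medians -3.09 and -2.76). The fibroblast markers were 10 of 10 higher in the first (median 0.40) and 5 of 10 in the second (median 0.18). The part of these cell types in the Eln ratios was not tested, and in bulk RNA fewer cells of a type and less RNA per cell cannot be told apart.

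**Figure D2:**
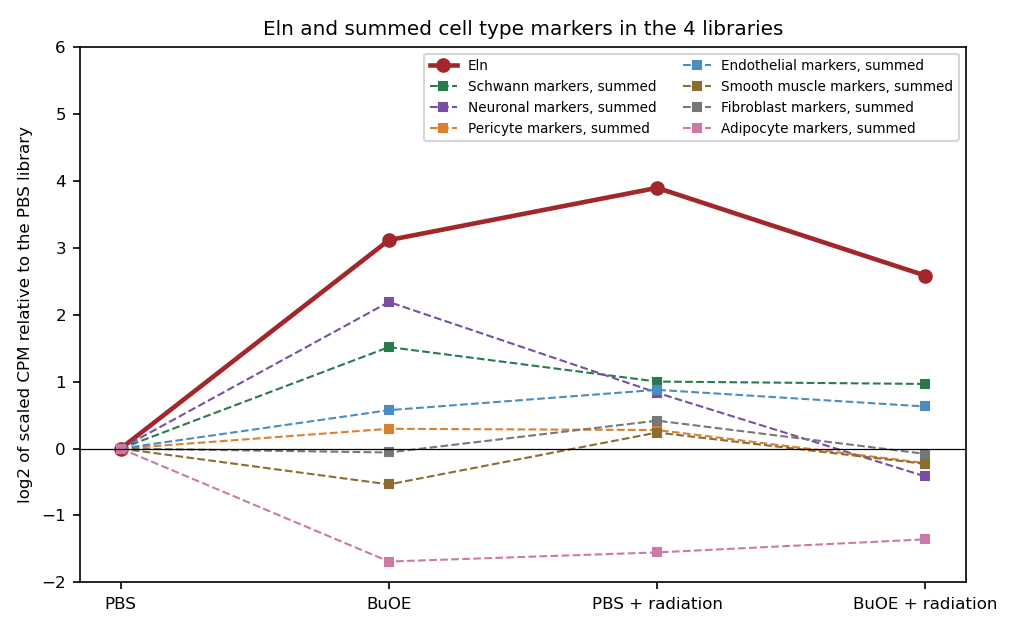
Log2 of the scaled CPM of Eln, and of the summed scaled CPM of 7 marker lists, relative to the PBS library and with no prior count; each point is 1 library and lines only join the points of 1 gene or list. The PBS library, set to 0, is lowest for Eln (1.87 CPM), for the Schwann list (117 CPM) and for the endothelial list (498 CPM). It is highest for the adipocyte list (574 CPM).

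Of the microfibril genes, Fbn1 and Mfap5 were lower in both BuOE libraries, and Mfap4 was not. Fbn1 encodes fibrillin-1, the main structural protein of microfibrils. It was at 1113 CPM in the PBS library, 619 CPM in the BuOE library, 1257 CPM after radiation with PBS and 527 CPM after radiation with BuOE. The log2 ratio of BuOE to PBS was -0.85 (-0.87 to -0.82) without radiation, 1.80-fold lower, and -1.26 (-1.28 to -1.23) after radiation, 2.39-fold lower. Radiation gave smaller ratios of opposite sign, 0.18 (0.16 to 0.20) in the PBS arm and -0.23 (-0.27 to -0.20) in the BuOE arm. On the fibroblast marker scale the PBS-arm ratio was -0.24 and the BuOE ratio after radiation was -0.76, no longer past 2-fold.

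Mfap5 encodes a small glycoprotein bound to microfibrils. Its level was 90.9 CPM in the PBS library, 58.2 CPM in the BuOE library, 90.8 CPM after radiation with PBS and 60.8 CPM after radiation with BuOE. The libraries fell into a PBS pair and a BuOE pair, and within each pair the levels lay close together: the radiation ratio was -0.00 (-0.08 to 0.07) in the PBS arm and 0.06 (-0.04 to 0.16) in the BuOE arm. The BuOE ratio was -0.64 (-0.73 to -0.55) without radiation and -0.58 (-0.67 to -0.49) after it. On the fibroblast marker scale the PBS-arm ratio was -0.42 and the BuOE ratio after radiation was -0.08.

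Mfap4 encodes a fibrinogen-domain protein that binds elastin and fibrillin. It was rare, at 9.74 CPM (8.64 to 10.9) in the PBS library, 8.08 CPM (7.10 to 9.16) in the BuOE library, 6.62 CPM (5.81 to 7.53) after radiation with PBS and 9.47 CPM (8.28 to 10.8) after radiation with BuOE. Its counting intervals overlapped except that the irradiated PBS library lay below the PBS library and the irradiated BuOE library. The log2 ratio of radiation was -0.55 (-0.81 to -0.30) in the PBS arm, and that of BuOE after radiation was 0.51 (0.25 to 0.78), the only one of the 8 genes above 0 in the latter comparison. Its ratio of radiation in the BuOE arm, 0.23, had an interval from -0.04 to 0.49.

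Fibulins bind elastin, fibrillin and basement membrane proteins. Fbln5 encodes fibulin-5, which tethers tropoelastin to the microfibril and to integrins and is needed for fibre assembly. Its level was 39.2 CPM in the PBS library, 16.1 CPM in the BuOE library, 46.3 CPM after radiation with PBS and 25.6 CPM after radiation with BuOE. Both BuOE libraries were again below both PBS libraries, with a BuOE ratio of -1.28 (-1.44 to -1.13) without radiation, 2.42-fold lower, and -0.86 (-0.99 to -0.72) after it, 1.81-fold lower. Fbln5 was higher in the irradiated library of each arm, by 0.24 (0.13 to 0.35) with PBS and 0.66 (0.49 to 0.84) with BuOE. On the fibroblast marker scale the first of these turned to -0.18.

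Fbln2 encodes fibulin-2, which binds fibrillin-1 and elastin. Its level was 1394 CPM in the PBS library, 429.8 CPM in the BuOE library, 1049 CPM after radiation with PBS and 557 CPM after radiation with BuOE. The BuOE ratio was -1.70 (-1.73 to -1.67) without radiation, 3.24-fold lower and below the ratio of all but 0.717% of genes, and -0.91 (-0.94 to -0.89) after radiation, 1.88-fold lower. The radiation ratio was -0.41 (-0.43 to -0.39) in the PBS arm and 0.37 (0.34 to 0.41) in the BuOE arm. Because Fbln2 and Fbn1 differed by unequal amounts, Fbln2 reads per 1000 Fbn1 reads went from 1253 in the PBS library to 694 in the BuOE library without radiation, and from 835 to 1057 between the irradiated libraries.

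Fbln1 encodes fibulin-1, a binding partner of elastin, fibronectin and versican. It was at 27.4 CPM in the PBS library, 29.3 CPM in the BuOE library, 36.8 CPM after radiation with PBS and 34.4 CPM after radiation with BuOE. The irradiated libraries were the high ones: the radiation ratio was 0.42 (0.30 to 0.55) in the PBS arm and 0.23 (0.10 to 0.37) in the BuOE arm, while both BuOE intervals included 0 (-0.04 to 0.23 without radiation and -0.22 to 0.03 after it). This order did not hold on the fibroblast marker scale, where the PBS-arm radiation ratio was 0.01 and the BuOE ratio after radiation was 0.40.

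Emilin1 encodes a glycoprotein at the interface of elastin and microfibrils that also restrains the processing of pro-TGF-beta. Its level was 161 CPM in the PBS library, 232 CPM in the BuOE library, 226 CPM after radiation with PBS and 168 CPM after radiation with BuOE. The libraries that had received 1 of the 2 treatments were high, and those that had received neither or both were low. The log2 ratio of BuOE was 0.53 (0.48 to 0.58) without radiation and -0.43 (-0.49 to -0.38) after it. The radiation ratio was 0.49 (0.44 to 0.54) in the PBS arm and -0.47 (-0.53 to -0.41) in the BuOE arm, a difference between the arms of 0.96 (0.89 to 1.04). On the fibroblast marker scale the PBS-arm radiation ratio was 0.08 and the BuOE ratio after radiation was 0.06, so that there the irradiated PBS library was not high in this way.

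**Figure D3:**
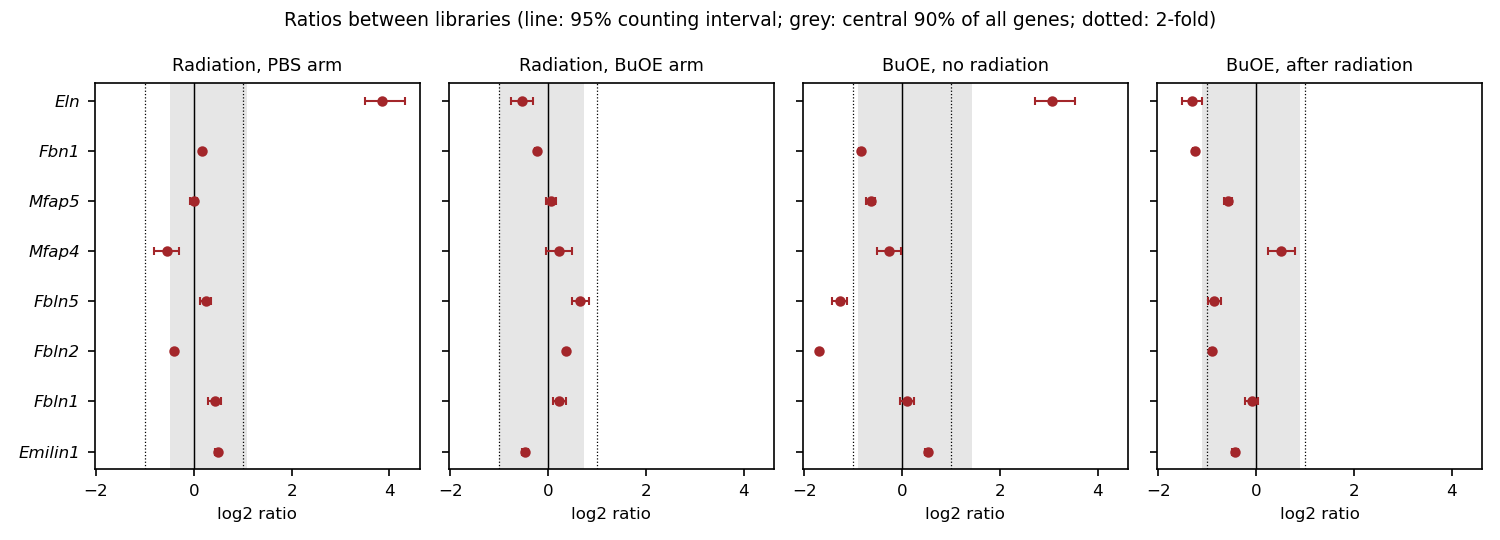
Log2 ratios of the 8 elastic fibre genes in the 4 library comparisons; points are single ratios, bars are 95% intervals for counting error, the grey band holds the central 90% of all genes tested, and dotted lines mark 2-fold. Eln lies above the band with radiation in the PBS arm (3.85) and with BuOE without radiation (3.07), Fbln2 (-1.70) and Fbln5 (-1.28) lie below it in the latter, and Eln (-1.31) and Fbn1 (-1.26) lie below it with BuOE after radiation, as does Mfap4 (-0.55) with radiation in the PBS arm.

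Across the set, ratios below 0 were most numerous with BuOE after radiation. Without radiation 1 of the 8 genes was at least 2-fold higher (Eln; 8.72% of all genes tested were) and 2 were at least 2-fold lower (Fbln2 and Fbln5; 4.23% of genes were), with a median log2 ratio of -0.45 against -0.01 over all genes. After radiation 7 of 8 were below 0, 2 were at least 2-fold lower (Eln and Fbn1; 5.92% of genes were) and none was at least 2-fold higher (3.81% of genes were), with a median of -0.72 against -0.07 over all genes. On the fibroblast marker scale, which after radiation moved mainly with Col1a1 and Col1a2, 5 of the 8 were below 0 there. None was at least 2-fold lower on it. With radiation the medians of the 8 genes were 0.21 in the PBS arm and 0.14 in the BuOE arm, against 0.00 and -0.03 over all genes.

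The BuOE comparisons without and with radiation share no library. Fbn1, Mfap5, Fbln5 and Fbln2 were lower with BuOE in both, 4 of 8 genes where 37.4% of all genes were, and none of the 8 was higher in both, where 30.0% were. All 4 were lower by more than 0.5 on the log2 scale in both comparisons, against 7.28% of all genes, a threshold chosen with the values known. The 4 stayed below 0 in both comparisons under every scaling tried, but on the fibroblast marker scale the ratios after radiation were -0.42 for Fbln2, -0.36 for Fbln5 and -0.08 for Mfap5. The other 4 genes had opposite signs (32.7% of all genes did), with Fbln1 at intervals that included 0. For radiation, whose arms also share no library, Fbln1 and Fbln5 were higher in both (27.1% of all genes were), none was lower in both (30.5% were), and the remaining 6 had opposite signs in the arms (42.3% of genes did), Mfap5 and Mfap4 among them with at least 1 interval that included 0.

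Marker lists also differed between BuOE and PBS libraries. Of the 10 smooth muscle markers, 6 were higher with BuOE in each comparison (medians 0.66 without radiation and 0.14 after it), and they did not go one way. Acta2 and Tagln, contractile genes, were lower with BuOE, Acta2 at 782 and 845 CPM in the PBS libraries without and with radiation against 308 and 298 CPM in the BuOE libraries, while Myh11, a myosin of mature smooth muscle, was at 24.4 and 43.4 CPM with PBS and 99.4 and 116 CPM with BuOE. Epithelial markers were higher with BuOE, 9 of 10 without radiation (median 0.52) and 10 of 10 after it (median 0.61). Macrophage markers were higher as well, 8 of 9 without radiation (median 0.39) and 9 of 9 after it (median 0.74). The fibroblast markers were 5 of 10 lower without radiation and 7 of 10 lower after it (median -0.38). The part of these shifts in the lower Fbn1, Mfap5, Fbln5 and Fbln2 was not tested.

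An additive model with terms for radiation and BuOE, which takes the departure from additivity as error and so leaves 1 residual degree of freedom, was fitted across all genes. By edgeR's quasi-likelihood test with Benjamini-Hochberg adjustment no gene passed 0.05 for either term. Of the 14365 genes tested, 1076 for radiation and 2954 for BuOE had an unadjusted p under 0.05 by that test. The BuOE effect on the log2 scale in that fit was -1.07 for Fbln5 (SE 0.17, adjusted p = 0.109), -1.05 for Fbn1 (SE 0.22, adjusted p = 0.143), -1.31 for Fbln2 (SE 0.28, adjusted p = 0.147) and -0.61 for Mfap5 (SE 0.12, adjusted p = 0.128). For Eln it was 0.80 with an SE of 1.34. These SEs were derived, as the size of the effect divided by the square root of the test's F statistic. The adjusted edgeR p of the radiation effect was at least 0.668 for each of the 8 genes.

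DESeq2, run on the same design, called 3 of the 8 genes lower with BuOE: Fbn1 (-1.01, adjusted p = 2.63e-05), Fbln2 (-1.26, adjusted p = 3.95e-05) and Fbln5 (-1.02, adjusted p = 0.0105). It called 3.38% of genes lower and 3.44% higher with BuOE, and for radiation 0.557% of genes higher and 0.223% lower, none of them among the 8. By limma-voom no gene was called for either term. The calls therefore rest on the tool.

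For 3 of the genes that separated by BuOE, the promoter windows are printed to show what their starts look like, with Emilin1, which did not separate that way, for contrast. RefSeq promoter windows of the mouse build GRCm38.p6, 250 bases before to 50 after the start of transcription, were matched by symbol for 5 of the 8 genes, in 7 windows. They lie at chr2:125506389-125506688 on the minus strand for Fbn1, chr6:91212514-91212813 on the plus strand for Fbln2, chr12:101819070-101819369 on the minus strand for Fbln5 (the first of its 2 windows) and chr5:30913536-30913835 on the plus strand for Emilin1. Each is written 5′ to 3′ in the gene's orientation, and capitals mark the GC box GGGCGG on either strand, the motif bound by Sp1-type factors.
Fbn1: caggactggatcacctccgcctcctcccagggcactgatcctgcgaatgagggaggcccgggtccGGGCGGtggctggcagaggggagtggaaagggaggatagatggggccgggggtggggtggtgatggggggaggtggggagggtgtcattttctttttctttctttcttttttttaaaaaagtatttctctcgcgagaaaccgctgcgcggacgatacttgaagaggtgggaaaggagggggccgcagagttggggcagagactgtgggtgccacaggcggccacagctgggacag
Fbln2: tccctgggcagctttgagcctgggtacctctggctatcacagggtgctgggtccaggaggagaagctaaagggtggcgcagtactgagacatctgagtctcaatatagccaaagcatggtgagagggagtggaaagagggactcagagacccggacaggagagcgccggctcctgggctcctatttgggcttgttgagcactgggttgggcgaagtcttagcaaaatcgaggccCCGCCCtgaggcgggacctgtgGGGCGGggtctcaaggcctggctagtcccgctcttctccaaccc
Fbln5: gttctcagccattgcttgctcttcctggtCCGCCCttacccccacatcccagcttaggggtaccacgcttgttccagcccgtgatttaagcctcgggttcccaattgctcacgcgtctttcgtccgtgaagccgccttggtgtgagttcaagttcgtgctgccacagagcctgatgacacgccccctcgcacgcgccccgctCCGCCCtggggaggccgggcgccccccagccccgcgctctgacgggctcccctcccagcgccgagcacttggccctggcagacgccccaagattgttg
Emilin1: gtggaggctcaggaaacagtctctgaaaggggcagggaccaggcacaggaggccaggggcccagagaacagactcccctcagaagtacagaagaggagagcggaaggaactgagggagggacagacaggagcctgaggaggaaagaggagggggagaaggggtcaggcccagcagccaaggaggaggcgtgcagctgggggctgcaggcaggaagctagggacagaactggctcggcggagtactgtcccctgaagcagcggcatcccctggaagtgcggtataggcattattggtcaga
The GC content was 60.3% for Fbn1, 60.3% for Fbln2, 65.7% for Fbln5 and 61.7% for Emilin1, against a median of 52.7% over 32851 windows. A GC box was found once for Fbn1, on 2 occasions each for Fbln2 and Fbln5, and not in the Emilin1 window. Fbln1, whose BuOE intervals included 0, had 2 in the second of its windows and none in the first, and the second Fbln5 window had none, so that the box did not separate the genes by their BuOE ratios. In all, 4 of the 7 windows of the set and 35.7% of all windows held one. No window of the set held the letters TGANTCA of AP-1 (in 7.81% of all windows), GGAATG of TEAD factors (14.7%), GTCTAGAC of SMAD proteins (0.213%) or TATAAA of the TATA box (13.6%), searched on both strands.

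The wider pathway was read from a list of 46 genes for other microfibril and fibulin genes, latent TGF-beta binding proteins, cross-linking enzymes, microfibril-associated ADAMTS and ADAMTSL proteins, proteases that cut elastin, and chaperones and receptors. Of these 43 passed 1 CPM, and Emilin3, Adamts17 and Elane did not. This list was not read on the fibroblast marker scale. On that scale the BuOE ratios after radiation were higher for all 8 elastic fibre genes.

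The cross-linking enzymes were lower with BuOE, most of them in both comparisons. These lysyl oxidases oxidise lysines of tropoelastin and collagen so that the fibres become covalently linked. Lox was at 1717 CPM in the PBS library, 823 CPM in the BuOE library, 1336 CPM after radiation with PBS and 866 CPM after radiation with BuOE. Loxl1, the family member most tied to elastin, was at 229.8, 112, 197 and 115 CPM in the same order, and Loxl3 at 163, 62.9, 132 and 76.2 CPM. All 3 were lower in both BuOE libraries than in both PBS libraries. Of the 5 enzymes, 4 were below 0 with BuOE without radiation (median log2 ratio -1.04; Loxl3 -1.37, Lox -1.06 and Loxl1 -1.04 past 2-fold) and 5 after radiation (median -0.78; Loxl2 -1.02 past 2-fold). Of all genes, 51.2% were below 0 and 4.23% at least 2-fold lower in the first comparison, and 56.2% and 5.92% in the second. Loxl2 was high in the irradiated PBS library alone, at 231 CPM against 99.3 to 115 CPM elsewhere.

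Among other microfibril and fibulin genes, Efemp1 (fibulin-3) was at 64.7 CPM in the PBS library, 12.5 CPM in the BuOE library, 47.1 CPM after radiation with PBS and 26.1 CPM after radiation with BuOE, a BuOE ratio of -2.37 without radiation, the lowest in the list. Efemp2 (fibulin-4), which brings lysyl oxidase to tropoelastin, was at 167, 97.6, 147 and 88.9 CPM, and Emilin2 at 113, 52.3, 99.9 and 64.6 CPM. These 3 were also lower in both BuOE libraries. Hmcn1, a giant fibulin relative, had ratios of 1.33 with BuOE without radiation and -1.18 after it, and of 1.03 and -1.48 with radiation in the PBS and BuOE arms, so that, as for Eln, the arms had opposite signs. Opposite signs in the arms were found for 26 of the 43 pathway genes and for 42.3% of all genes.

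**Figure D4:**
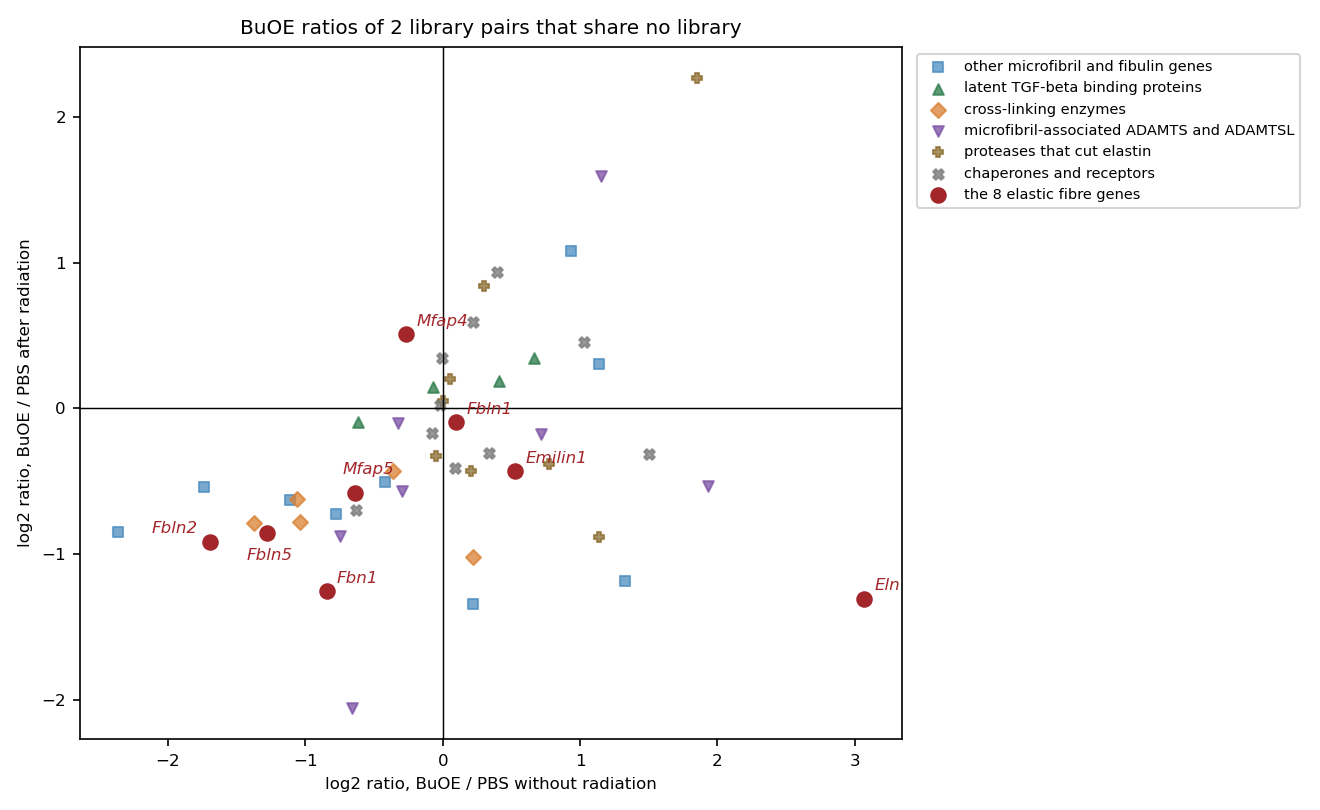
Log2 ratio of BuOE to PBS without radiation (horizontal) against that after radiation (vertical) for the 8 elastic fibre genes and the 43 pathway genes past 1 CPM; each point is 1 gene, and the axes use libraries that do not overlap. Fbln2, Fbln5, Fbn1 and Mfap5 lie in the lower left with Lox, Loxl1 and Loxl3, and Eln lies at the lower right (3.07, -1.31).

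In the PBS arm 6 of the 43 pathway genes were 2-fold or more higher with radiation (5.62% of all genes were), and none was lower by as much (1.02% were). They were Thsd4 (1.95), which binds fibrillin-1, the gelatinase Mmp9 (1.45), Loxl2 (1.21), Adamtsl3 (1.21), Mmrn2 (1.20), an endothelial relative of the emilins, and Hmcn1 (1.03). The lowest were Fbn2, the second fibrillin (-0.55), and Efemp1 (-0.46). In the BuOE arm 3 passed 2-fold upwards (2.27% of all genes did), Adamtsl4 (1.25), Mmrn1 (1.07) and Efemp1 (1.06), and 2 downwards (4.94% did), Hmcn1 (-1.48) and Adamtsl2 (-1.05). The median of the 43 was -0.08 in the PBS arm and -0.03 in the BuOE arm.

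With BuOE without radiation 8 of the 43 were 2-fold or more higher (8.72% of all genes were), and 6 were lower by as much (4.23% were). The higher ones were Thsd4 (1.93), the elastin-cutting protease matrilysin Mmp7 (1.85), the integrin subunit Itga8 (10.5 CPM against 3.68 CPM), Hmcn1 (1.33), Adamtsl4 (1.15), Mmp9 (1.14), Mmrn2 (1.13) and Itgb6 (1.03), an epithelial integrin subunit that activates latent TGF-beta. The lower ones were Efemp1, Mmrn1 (-1.74), Loxl3, Emilin2 (-1.12), Lox and Loxl1. After radiation 3 passed 2-fold upwards with BuOE (3.81% of all genes did), Mmp7 (2.27), Adamtsl4 (1.60) and Fbln7 (1.08), and 4 downwards (5.92% did), Adamtsl3 (-2.05), Mfap2 (-1.34), Hmcn1 and Loxl2. Mmp7, at 12.7 and 9.54 CPM with PBS and 45.9 and 46.2 CPM with BuOE, and Adamtsl4, a microfibril-bound ADAMTS-like protein, were higher with BuOE in both comparisons.

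Between comparisons that share no library, 10 of the 43 pathway genes were lower with BuOE by more than 0.5 on the log2 scale in both and 3 higher in both, where 7.28% and 6.56% of all genes were. The median of the 43 was 0.06 without radiation and -0.33 after it. By edgeR's quasi-likelihood test none of the 43 passed 0.05, with the lowest adjusted p of the BuOE effect at 0.0908 for Mmp7, 0.0967 for Adamtsl4 and 0.101 for Loxl1. By DESeq2, 7 were called lower with BuOE (Loxl3, Loxl1, Efemp1, Lox, Efemp2, Emilin2 and the chaperone gene Fkbp10), 3 higher (Mmp7, Adamtsl4 and Lgals3), and 1 higher with radiation (Adamtsl4, adjusted p = 0.0488).

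How alike the 8 genes were to each other, and to other genes, was described by the Euclidean distance between log2 profiles centred on the mean of the 4 libraries. With 4 points a profile this is a description only. The distance also grows with the spread of a profile over the libraries, which was widest for Eln among the 8. The closest pairs within the set were Emilin1 with Fbln1 (0.50), Fbn1 with Mfap5 (0.50) and Fbln2 with Fbln5 (0.56), while Eln was at least 2.51 from each of the other 7. Among 9510 candidates averaging 10 CPM or more, the nearest to Eln were Apod (0.87), Col28a1 (0.89) and Cdh19 (0.97). Apod, which encodes a secreted lipocalin, was at 9.40, 62.9, 68.5 and 60.5 CPM in the order PBS, BuOE, irradiated PBS and irradiated BuOE, and Cdh19, one of the Schwann cell markers, at 4.60, 31.3, 26.9 and 17.5 CPM. Both were lowest in the PBS library, as Eln was, but they were picked for nearness to its profile, so this adds no separate evidence.

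The other 7 genes, whose levels spread less over the libraries, had much closer neighbours than Eln. The nearest were Ccdc88a, Zfp280c and Xpo4 for Mfap5 (0.01 to 0.04), Snapc1, Tmem30a and Cacng7 for Fbln1 (0.04 to 0.05), F2r, Hist1h4a and Atad5 for Fbn1 (0.06 to 0.07), and Creg1, Gsta3 and Fnip2 for Mfap4 (0.07 to 0.10). Those of Emilin1 were Slc9a3r2, Adam23 and Plat (0.09 to 0.12), those of Fbln5 were Peg10, Apbb1ip and Vgll3 (0.09 to 0.17), and those of Fbln2 were Gas2, Rrm2 and Hmga2 (0.11 to 0.18).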

How the data were processed

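Total RNA of 4 cultured fibroblast libraries was sequenced, and the authors deposited 1 table of raw read counts per gene for all of them, counted by featureCounts according to the submitters' processing notes. These notes also list Trim Galore 0.6.4, FastQC, Salmon 1.4.0, edgeR 4.2.2 and the build GRCm39, without roles. Strand and multi-mapping settings are not given in the sources used here. Symbols and exonic lengths came from GENCODE M21 on GRCm38, which left 4675 IDs without a symbol.

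Libraries were matched to conditions by column name, and each condition had 1. Counts were scaled by TMM in edgeR 4.0.16 (R 4.3.3) over all genes with a count, and ratios used a prior count of 2 and genes averaging 1 CPM or more. A difference of at least 2-fold was counted. The additive model was fitted with edgeR's quasi-likelihood test, and with DESeq2 1.42.0 and limma 3.58.1 as alternatives, all at an adjusted p of 0.05. Scripts were tested on simulated data. Other alternatives were DESeq2 size factors, library size alone, upper-quartile factors, no filter or 10 CPM, a prior count of 0.5 and, added after the data were seen, scaling on the summed fibroblast markers.

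The text names all 8 genes, in the pathway list the top 2 and bottom 2 ratios per comparison and every ratio of at least 2-fold, and the 3 nearest profiles of each of the 8; Efemp2, Fkbp10, Lgals3 and the single marker genes were chosen after their values were seen. The 8 genes and the lists were chosen with earlier results of these data known.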

Additional observations from a re-analysis of the deposited data

Results flagged for a closer look

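Of the 8 genes, 6 had radiation ratios on opposite sides of 0 in the PBS and BuOE arms, as 42.3% of all genes did. The 4 whose counting intervals did not include 0 in either arm are listed for that reason. The difference of the log2 ratios, PBS arm minus BuOE arm, was 4.38 for Eln, 0.96 for Emilin1, 0.41 for Fbn1 and -0.78 for Fbln2. With 1 library in each condition these differences were not tested against the variation between cultures. The Eln difference rests on 55 reads in the PBS library.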

How the results depend on the processing

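No paired analysis was possible because each condition had 1 library. For the same reason leaving out a replicate gave no value. Of the alternative values of the comparisons' counts, 131 stayed within 1.5 times the reported count and 31 did not. Of those of the single genes and of the additive effects, 272 stayed, 54 moved, 3 became calls and 10 changed sign.

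Without a filter on low counts the genes at least 2-fold higher and lower numbered 2330 and 1404 (radiation, PBS arm), 2171 and 2009 (radiation, BuOE arm), 2850 and 2373 (BuOE without radiation), 2343 and 2241 (BuOE after radiation), and 4048 and 3043 (difference between arms). At 10 CPM or more, which leaves out Mfap4, they numbered 245 and 43, 118 and 180, 433 and 339, 245 and 347, and 390 and 132.

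With library size alone the median of all genes was -0.14 for radiation in the BuOE arm, -0.10 for BuOE after radiation and 0.15 for the difference between the arms, and 2 of the 8 genes passed the 2-fold limit for that difference, Eln and Emilin1. With upper-quartile factors that median was -0.11.

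On the summed fibroblast markers, after radiation 1 of the 8 genes was at least 2-fold higher with BuOE (Mfap4) and 0 were lower, and 2 (Fbln2 and Mfap4) passed 2-fold downwards in the difference between the arms. Signs turned for radiation in the PBS arm at Fbn1 (-0.24) and Fbln5 (-0.18), for BuOE after radiation at Emilin1 (0.0648), and for the difference at Fbn1 (-0.0290) and Fbln1 (-0.25). The sign also turned for BuOE after radiation at Fbln1, whose reported interval included 0, so it was not counted as changed.

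In the additive model, DESeq2 called 80 genes higher and 32 lower for radiation and 437 higher and 429 lower for BuOE, 3 of the 8 among the latter, and edgeR without a filter called 89 and 194 for BuOE. The BuOE effect on Fbln1, near 0, was 0.0436 with DESeq2 and 0.0199 with edgeR on DESeq2 size factors. With limma-voom the radiation effect was 0.0682 on Fbln2 and -0.00050 on Emilin1, and the BuOE effect on Eln was -0.0014. The cause of these changes was not tested.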
